A study of Mus musculus with 6 samples.

Results

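The genes described here were 9 genes of the NF-κB system, chosen by symbol from the 27179 genes of the B16F10 table: the NF-κB subunit genes Nfkb1, Nfkb2, Rela and Relb, the inhibitor genes Nfkbia and Tnfaip3, and the inflammatory target genes Cxcl1, Ccl2 and Icam1. All 9 were found, each in 1 row, and all 9 had reads. B16F10 is an established mouse melanoma line, labelled wild type, kept in DMEM with fetal bovine serum. RNA was sequenced from 3 cultures given 0.01% OZO, olive oil exposed to ozone, for 6 h and from 3 cultures given 0.01% OLO, the oil it was made from, for the same time. Every culture therefore had oil in its medium, and B16F10 stands here for 1 cell line at 1 time. The value analysed for each gene was the authors' mean log2 CPM over all 6 libraries, where CPM is the reads of a gene per 1000000 reads of a library. It joins OZO-treated and OLO-treated cells, so it gives the level of a gene in this experiment and not the difference between the treatments, which was not analysed here. A mean over libraries carries no replicate error, and no test was made on it.

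NF-κB is a family of transcription factors that bind DNA as pairs of subunits. In a resting cell the pairs are held in the cytoplasm by IκB proteins, and a kinase complex that marks IκB for destruction releases them into the nucleus. Genes switched on there encode chemokines and adhesion molecules, and also IκBα and A20, which turn the signal down again. Because release acts on protein, the amount of subunit mRNA does not show how much NF-κB is active.

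The DNA sequences through which NF-κB acts, κB sites, were looked for in RefSeq promoters of build GRCm38.p6, which span 250 bases before to 50 bases after a start of transcription. Promoters were found for 6 of the 9 genes (Nfkb2, Rela, Nfkbia, Tnfaip3, Cxcl1 and Icam1), 9 promoters in all since Nfkb2 had 3 starts and Tnfaip3 had 2. Those of Nfkb1, Relb and Ccl2 were not used here. The 10-letter κB consensus, on either strand, was matched in promoters of 4 of the 6 genes, namely Nfkb2, Nfkbia, Tnfaip3 and Cxcl1. It was present in 8.46% of all 32851 promoters and in a promoter of 9.55% of all 27025 genes of the RefSeq table. A match is a run of letters and says nothing about binding in these cells. The stretches below are shown because they hold these matches before the first start of each gene, written along the gene's strand with the matching bases in capitals.
Nfkb2, chr19:46304688-46304717, plus strand: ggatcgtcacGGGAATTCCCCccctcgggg
Nfkbia, chr12:55492657-55492686, minus strand: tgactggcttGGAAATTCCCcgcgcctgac
Cxcl1, chr5:90891164-90891193, plus strand: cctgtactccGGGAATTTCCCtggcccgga
Tnfaip3, far site, chr10:19015516-19015545, minus strand: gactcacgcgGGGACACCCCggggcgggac
Tnfaip3, near site, chr10:19015411-19015432, minus strand: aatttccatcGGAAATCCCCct

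In Nfkb2 the capitals begin 39 bases before the start and hold 2 overlapping matches, of which GGGAATTCCC reads the same on both strands and was present in 13 of the 32851 promoters. A further Nfkb2 match, GGGGCTTTCC, began 11 bases before the same start. GENCODE places both of these in untranslated exon sequence of longer Nfkb2 transcripts and in an exon of AC114539.1, a noncoding gene on the opposite strand. The other 2 Nfkb2 starts shared 1 match, GGGACTTTCC at chr19:46305705-46305714, and the second start also had GGAATGTCCC, 236 bases before it. The single Nfkbia match began 29 bases before the start, outside any annotated transcript. It has the same letters, read on the other strand, as 1 of the 2 overlapping matches of Cxcl1, which began 71 bases before the Cxcl1 start and were also outside any annotated transcript. In all, 29 of the 32851 promoters held those 10 letters. In Tnfaip3 the sites began 125 and 12 bases before the first start, inside an intron of a longer annotated Tnfaip3 transcript, and the second start had no match.

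Rela and Icam1 had no match of the consensus in this window. A looser form on either strand, GGG and CC with any 5 bases between them, takes in every consensus match. It was matched in all 6 genes but also in 53.5% of all genes of the RefSeq table. Of the other motifs searched, the AP-1 motif TGANTCA was matched in Nfkb2 and Tnfaip3, against 8.97% of all genes. The GC-rich Sp1 box GGGCGG, on either strand, was matched in every one of the 6 genes but Cxcl1, against 38.2% of genes. The TATA box TATAAA, on either strand, was matched in Icam1, Nfkbia and Tnfaip3, against 15.7%. In Icam1 and Nfkbia, however, the letters lay after the start. In Tnfaip3 they began 225 bases before the first start, in an annotated Tnfaip3 exon.

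**Figure D1:**
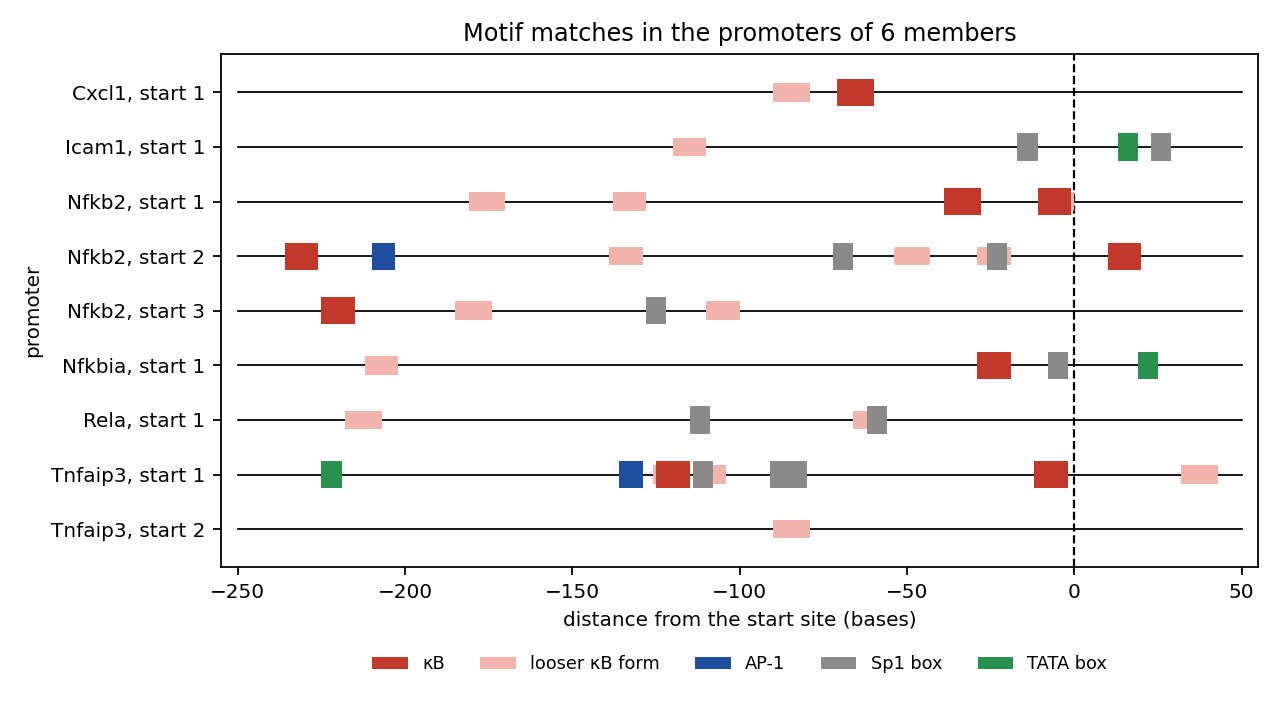
Motif matches in the 9 RefSeq promoters of 6 genes. The x axis is the distance from the start site in bases (dashed line, 0), each row is 1 promoter with starts numbered along the direction of transcription, and boxes mark motif matches on either strand. The consensus κB boxes (red) lie within 39 bases before the first start in Nfkb2 and Nfkbia and at 71 bases in Cxcl1, and are missing from Icam1 and Rela.

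In depth, 1 CPM stood for 19.6 reads in a library, from a geometric mean of the scaled library sizes of 19641946 reads. That size was read from the 6025 genes without reads, which share the lowest value, and the depth of each library is unknown. The 21154 genes with reads had a median of 2.73 CPM, and 56.2% of them reached 1 CPM. Of the 9 genes, 5 reached 1 CPM, namely the 4 subunit genes and Nfkbia, and these 5 were also above the median gene with reads. Per kb of the longest transcript, however, Relb was just below the median, with 1.49 against 1.87 CPM per kb. That Relb transcript is annotated as a retained intron. By the longest protein-coding transcript Relb had 2.21 CPM per kb, but no median was computed with that length. The other 4 (Tnfaip3, Cxcl1, Icam1 and Ccl2) were under 1 CPM and below the median gene with reads. Among only the genes of at least 1 CPM, Relb (percentile 16.9) and Nfkbia (31.5) were below the median. Nfkb2 (51.4), Rela (58.9) and Nfkb1 (61.1) were above it. Melanocyte genes marked the cells as labelled, since all 8 listed markers, among them Dct, Tyrp1, Pmel and Sox10, were between 108.5 and 7052 CPM. Markers of other cell types were low but not all absent, with 2 of 8 leukocyte, 3 of 6 fibroblast, 1 of 4 endothelial and 0 of 4 keratinocyte markers at 1 CPM or more, and a highest value of 5.47 CPM for Cd68. The leukocyte marker Ptprc, which encodes CD45, was at 0.0702 CPM.

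**Figure D2:**
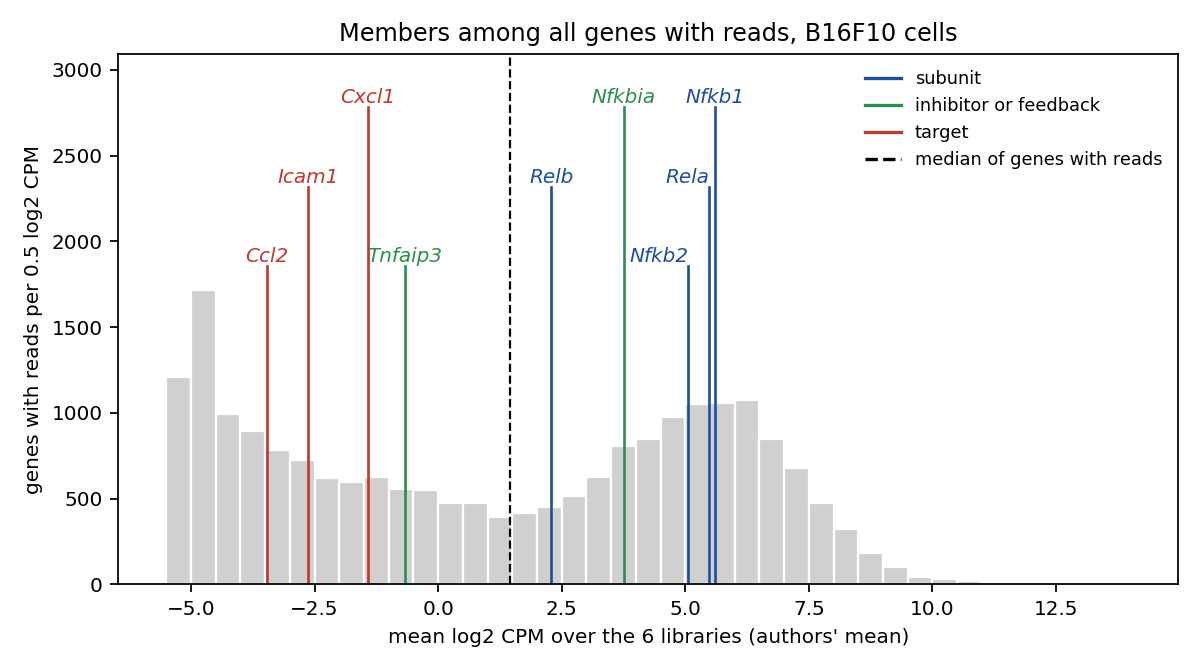
Level of each of the 9 genes (coloured lines) over the distribution of the 21154 genes with reads (grey bars). The x axis is the authors' mean log2 CPM over 6 libraries and the y axis is the number of genes per bar of 0.5 log2 CPM; heights of the coloured lines carry no value. Subunit genes and Nfkbia lie right of the median gene (dashed line), whereas Tnfaip3, Cxcl1, Icam1 and Ccl2 lie left of it, on a scale not divided by length.

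The subunit genes Nfkb1, Rela and Nfkb2 were the best expressed of the 9. Nfkb1, which encodes p105 and its processed form p50, lies on chromosome 3 of GRCm38 (135584655 to 135691547, minus strand). The authors' mean for Nfkb1 was 5.61 log2 CPM, or 48.8 CPM, which was higher than in 78.1% of the genes with reads. Rela, which encodes the activating subunit p65, lies on chromosome 19 (5637483 to 5648130, plus strand). Its mean was 5.49 log2 CPM, or 44.9 CPM, at the 76.9th percentile. Nfkb2, which encodes p100 and p52 of the alternative branch, lies on the same chromosome (46304320 to 46312385, plus strand). Its mean was 5.06 log2 CPM, or 33.4 CPM, at the 72.7th percentile. These levels rested on a geometric mean of 655.1 to 959.1 reads per library (with the 0.5 reads that voom adds). Nfkb2 overlaps the protein-coding gene Psd and AC114539.1, both on the opposite strand. Although the library kit is directional, which keeps the strand of the RNA, whether the counting used it is not given in the sources used here. Nfkb1 overlaps Gm43430 on the same strand, where strand cannot separate the 2 genes. The part of Gm43430 in the reads of Nfkb1 was not tested. Relb, the partner of p52 in the alternative branch, was the lowest subunit gene of the 4. It lies on chromosome 7 (19606217 to 19629438, minus strand), and its mean was 2.29 log2 CPM, or 4.89 CPM, from 95.98 reads per library, at the 53.3rd percentile.

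Longer transcripts give more reads, so levels of different genes were compared per kb of the longest annotated transcript. For 5 of the 9 genes (Nfkb1, Relb, Tnfaip3, Cxcl1 and Ccl2) that transcript is annotated as a retained intron. On this scale Rela was first with 16.5 CPM per kb, followed by Nfkb1 with 11.8 and Nfkb2 with 8.67, and Relb had 1.49. Rela was thus 1.40-fold above Nfkb1 and 11.1-fold above Relb per kb, or 2.04-fold and 15.2-fold by the mean transcript length. The fifth gene of the subunit family, Rel, which encodes c-Rel and is not among the 9, was at 1.28 CPM per kb. Relb was 1.16-fold above Rel by the longest transcript and 1.88-fold by the mean length, but without division by length Rel was the higher, with 9.58 CPM. Whether neighbours in this order differ beyond the spread between cultures cannot be told from a mean.

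Nfkbia, the gene of the inhibitor IκBα, is a classical target of NF-κB and carries the κB letters shown above. It lies on chromosome 12 (55489410 to 55492647, minus strand), and the authors' mean was 3.76 log2 CPM, or 13.5 CPM, from 265.9 reads per library, at the 61.5th percentile. Per kb it had 8.58 CPM and so stood 1.01-fold below Nfkb2 and 1.93-fold below Rela (3.10-fold by the mean transcript length). Among 7 genes listed as IκB inhibitors or IκB-like proteins, Nfkbia was the highest per kb. Nfkbib, the gene of IκBβ, had 6.89 CPM per kb and Nfkbie, the gene of IκBε, had 1.56. The lowest of the list was Nfkbid, with 0.0163 CPM per kb.

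Tnfaip3 encodes A20, an enzyme that edits ubiquitin chains and limits signalling from receptors to the IκB kinase. It lies on chromosome 10 (19000910 to 19015657, minus strand), and its mean was -0.68 log2 CPM, or 0.625 CPM, at the 40.4th percentile. Per kb it had 0.101 CPM, 85.0-fold below Nfkbia by the longest transcripts, 52.8-fold by the mean length and 60.7-fold by the longest protein-coding transcripts. The Nfkbia promoter and the first of the 2 Tnfaip3 promoters carry κB letters. It was also the lowest of 9 genes listed for feedback and removal of ubiquitin, and the only gene of that list under 1 CPM. Tnip1, which encodes a protein that binds A20, had 11.3 CPM per kb and Cyld, another deubiquitinating enzyme of the pathway, had 8.44. The highest gene of the list was Tax1bp1, an A20 adaptor, with 150.0 CPM per kb.

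The target genes were below the median gene with reads. Cxcl1, a chemokine that draws neutrophils, lies on chromosome 5 (90891241 to 90893115, plus strand), and its mean was -1.42 log2 CPM, or 0.373 CPM, at the 36.1st percentile. Icam1, the adhesion molecule that leukocytes hold on to, lies on chromosome 9 (21015985 to 21028817, plus strand), and its mean was -2.63 log2 CPM, or 0.162 CPM, at the 29.0th percentile. Ccl2, a chemokine that draws monocytes, lies on chromosome 11 (82035571 to 82037453, plus strand), and its mean was -3.47 log2 CPM, or 0.0905 CPM, at the 23.0th percentile. Genes without a read in any library stand at 0.0255 CPM on this scale, because of the added 0.5 reads, so each of the 3 genes had reads in at least 1 library. Ccl2 overlaps Gm17268 and Icam1 overlaps Gm47079, both on the opposite strand, and the part of those genes in the reads was not tested. Per kb the 3 genes had 0.199 CPM (Cxcl1), 0.0826 (Ccl2) and 0.0638 (Icam1). By the longest protein-coding transcript Cxcl1 had 0.391 CPM per kb and Ccl2 0.111.

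**Figure D3:**
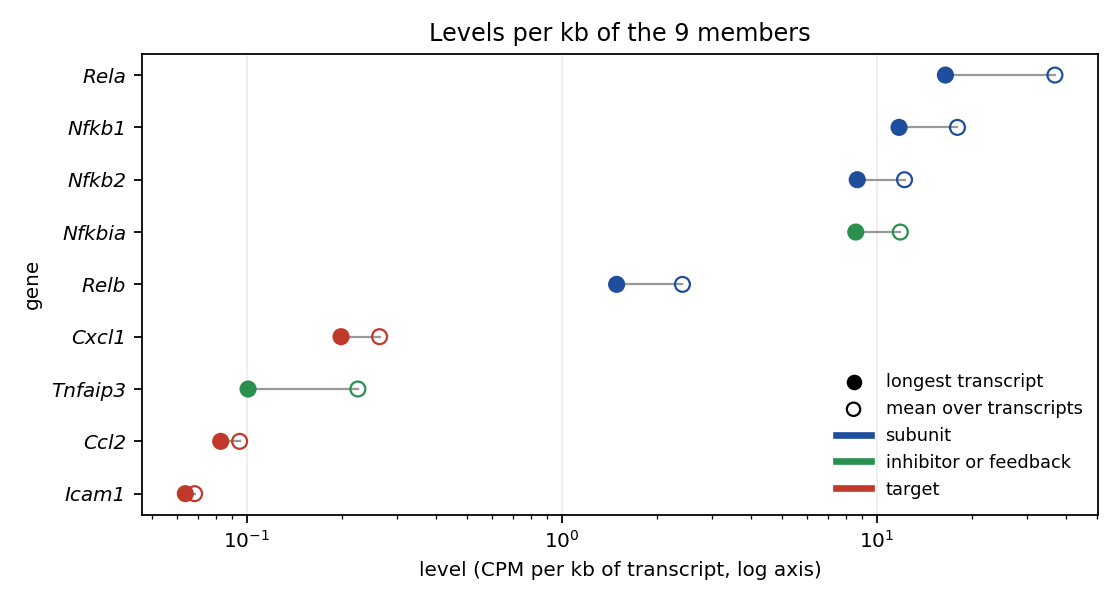
Level of the 9 genes in CPM per kb of transcript (log axis), with filled points for the longest transcript and open points for the mean length over a gene's transcripts. Rela, Nfkb1, Nfkb2 and Nfkbia lie between 8.58 and 16.5 by the longest transcript, Relb at 1.49, and the other 4 genes at or below 0.199, in the same order with either length.

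For genes this low the mean also limits which read counts were possible. The mean fixes the product, over the 6 libraries, of 2 times the reads plus 1, which is an odd whole number (to within 0.0001 in all 8941 of the 8941 genes with products under 1000000000). The product alone does not tell even counts from reads gathered in few libraries, and for Ccl2, Icam1, Cxcl1 and Tnfaip3 it also allows 5 of the 6 libraries to be without reads. For Ccl2 the product was 2025, which takes at least 8 reads over the 6 libraries. Every set of counts with that product has a library with at most 1 read and one with at least 2. For Icam1 it was 65625, which takes at least 18 reads, with at most 2 in some library and at least 7 in another. For Cxcl1 it was 9832095, which takes at least 49 reads, with at most 3 in some library and at least 17 in another. For Tnfaip3 it was 219958011, which takes at least 73 reads, with at most 10 in some library and at least 19 in another. These counts are before any scaling for library size, and spread of this kind was not set against counting noise. Which libraries were high, and whether they were OZO-treated or OLO-treated, is not held in the mean.

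The pathway was listed as 92 genes, the 9 among them. Of the 92, 56 (60.9%) reached 1 CPM, and 4 had no reads. Without the 9 genes, 51 of 83 reached 1 CPM. The share was 43.7% of all genes in the table, of which 6025 had no reads, and 56.2% of the genes with reads. The 10 genes of the IκB kinase step were all at 1 CPM or more, with a median of 69.5 CPM. Per kb of the longest transcript they ran from Ikbke with 1.48 to Tab2, an adaptor of the kinase TAK1, with 48.3. By the mean length Map3k14 was the lowest, with 3.3 CPM per kb against 4.05 for Ikbke. Of 26 receptor and adaptor genes 18 reached 1 CPM. The TNF receptor gene Tnfrsf1a was the highest of these with 31.8 CPM per kb, Cd40 the lowest with reads (0.0102), and Tnfrsf11a had none. None of the 8 ligand genes reached 1 CPM. Il1b, the highest of them, had 0.132 CPM per kb, Lta the lowest with 0.0265, and Tnfsf11 had no reads.

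Cxcl1 and Ccl2 belonged to 13 chemokine and cytokine genes, of which 3 reached 1 CPM. These were Ccl5, Csf1 and Cxcl10, with Ccl5 the highest of the list at 11.5 CPM per kb, 58.0-fold above Cxcl1 (37.1-fold by the longest protein-coding transcripts). The lowest with reads was Ccl20 with 0.0235 CPM per kb, and Cxcl3 and Cxcl5 had no reads. Icam1 belonged to 14 adhesion and other target genes, of which 7 reached 1 CPM. Ier3, an early response gene, was the highest of these with 33.1 CPM per kb and Nos2, the inducible nitric oxide synthase, the lowest with 0.00729. Low readings were thus shared by the ligands and by most chemokine and cytokine genes, but the target lists also held genes well above the median gene with reads.

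**Figure D4:**
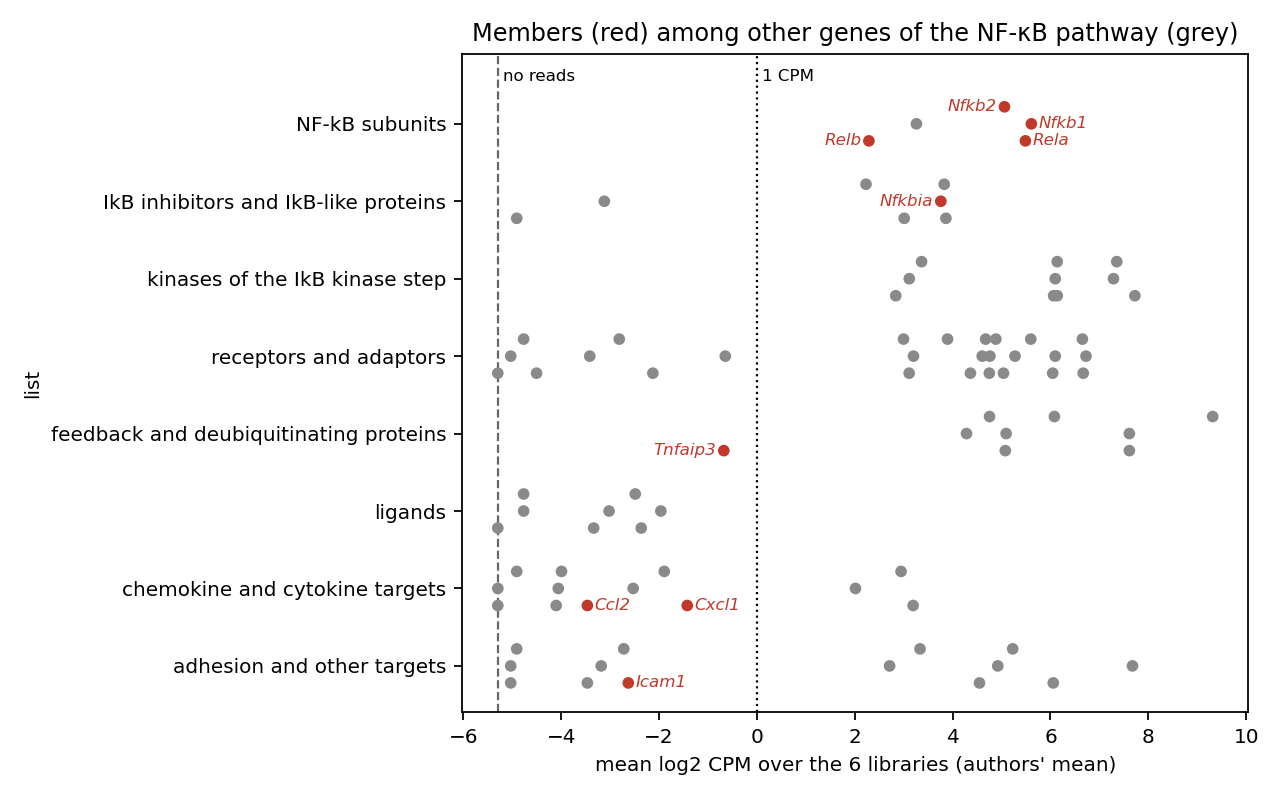
Level of 92 NF-κB pathway genes by list, with the 9 genes described here in red and labelled and the others in grey. The x axis is the authors' mean log2 CPM over 6 libraries, points are spread vertically within a list only to be seen, the dotted line is 1 CPM and the dashed line is the value of genes without reads. All 10 kinase-step genes lie right of 1 CPM and all 8 ligand genes left of it.

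Across all genes with reads and a promoter in the RefSeq table (15254 genes), those with the κB consensus had a median of 8.39 CPM and those without it 6.51 CPM. With the Sp1 box the median was 20.3 CPM and without it 0.408 CPM. The AP-1 motif and the TATA box went the other way, with 0.72 CPM with and 7.71 CPM without the AP-1 motif, and 0.607 CPM with and 8.32 CPM without the TATA box. Of the 4 genes here with κB letters, Nfkb2 and Nfkbia were above the median of genes with the consensus and Tnfaip3 and Cxcl1 below it.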

How the data were processed

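Cells were sequenced as 3 OZO-treated and 3 OLO-treated cultures (0.01% oil, 6 h). Per the labels and methods, the authors aligned reads to mm10 with HISAT2 2.1.0, counted them per gene with featureCounts 2.1.1 and compared OZO with OLO by limma-voom 3.58.1. Their deposited table holds 27179 genes with 1 mean log2 CPM over all libraries, in which voom adds 0.5 reads to each count. It also holds columns of the authors' own comparison (fold change, moderated statistic, p-values and log odds), which were not used here. The study describes the RNA-seq values of these cells as coming from separate experiments.

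From the mean log2 CPM, CPM, reads, percentiles among genes with reads and possible read counts were computed, and levels per kb with GENCODE M21 (GRCm38) transcript lengths, available for 23882 genes. Motifs were searched in RefSeq promoters of GRCm38.p6, matched by symbol. The calculations were tested on simulated data. The genes and lists were chosen with earlier results of these data known. Named were the 9 genes and, per list, the highest and lowest per kb with reads and genes without reads. Rel, Nfkbib, Nfkbie, Nfkbiz, Map3k14, Tnip1, Cyld, Csf1, Cxcl10, Cflar, Sod2 and the markers were named after their values were seen. Python 3.11.15, numpy 2.4.6, pandas 2.3.3 and matplotlib 3.10.9 were used.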

Additional observations from a re-analysis of the deposited data

How the results depend on the processing

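No paired analysis was possible because each gene entered as 1 mean over the 6 libraries. Tests, other normalizations, count filters, pseudocounts and fits without 1 culture need separate values and were not run. The 9 genes had a median percentile of 53.3 among genes with reads and of 63.7 among all genes in the table. The 5 genes that reached 1 CPM stood lower among genes of at least 1 CPM. There the percentiles were 61.1 for Nfkb1, 58.9 for Rela, 51.4 for Nfkb2, 31.5 for Nfkbia and 16.9 for Relb. The order of levels per kb was the same for all 9 genes with the mean transcript length and, an alternative chosen after seeing the data, with the longest protein-coding transcript. Without division by length 3 of the 9 genes kept their place, since Nfkb1 with Rela, Tnfaip3 with Cxcl1 and Icam1 with Ccl2 changed places. Ratios moved more than the order, and Rela was 11.1-fold above Relb with the longest, 15.2-fold with the mean and 7.47-fold with the longest protein-coding transcript. The κB consensus was matched in 4 genes also in the 250 bases before a start alone, and the looser form in 6.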
